A study of Mus musculus with 2 samples.

Results

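The cells described here are tumour myeloid cells picked by 3 transcripts, Ccl17, Ccl22 and Plet1, and are called Ccl17-set cells. They numbered 518 of 3022 myeloid cells (17.1%), out of 21172 barcodes in 2 single-cell RNA-seq libraries. Myeloid cells were barcodes with at least 5000 unique molecular identifiers (UMIs, counted transcripts), at least 500 genes and at most 10% mitochondrial UMIs. They also held at least 500 CPM (UMIs scaled to a common total) of Tyrobp and Fcer1g together, and stayed under set limits of neutrophil (S100a8 and S100a9), fibroblast (Col1a1 and Col3a1), mast cell and T cell (Cpa3 and Cd3e) transcripts. Each cell was scored for 5 gene sets, headed by Cd163, Nos2, Retnla, Chil3 and Ccl17, and each score was standardised over all myeloid cells. Ccl17-set cells had their highest score in the set of Ccl17, Ccl22 and Plet1 and held under 200 CPM of Ccr7, the receptor that guides mature dendritic cells to lymph nodes. All levels of these 3 genes, and of the genes of the other sets, were fixed by this choice and are given as a description.

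Ccl17 and Ccl22 are chemokines that bind Ccr4 and draw in regulatory and helper T cells, and in mice both are made by dendritic cells and by macrophages under interleukin signals such as IL-4. Plet1 is a membrane-anchored protein of epithelia and of some mouse dendritic cells. Monocytes that enter inflamed or tumour tissue can take on features of dendritic cells, among them MHC class II molecules, which show peptides to CD4+ T cells, while other monocytes become macrophages rich in complement C1q and lysozyme.

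The study used allografted pancreatic ductal adenocarcinoma in mice of the genotype p16-CreERT2/R26-LSL-tdTomato. In these mice the tamoxifen-dependent recombinase CreERT2 is made under control of p16, the cell cycle inhibitor encoded by Cdkn2a, and recombination switches on the red protein tdTomato from the R26 locus. Both groups carried these alleles and came from tumours of mice perfused with PBS, and the labels tell them apart by the sort: stromal cells with tdTomato (Tom positive) or without it (Tom negative), with 1 library each. The labels used here give neither the number, age or sex of the mice, nor pooling, nor the timing of tamoxifen, and the reporter marks cells by past p16 promoter activity. With 1 library per group there was no test between groups, and the 95% intervals below cover counting error only. They are Poisson for CPM, exact binomial for shares and exact conditional for ratios, and they leave out the spread between mice or sorts. Intervals of CPM and of CPM ratios treat UMIs as independent, so they also leave out the spread between cells. They are too narrow where a few cells hold most UMIs of a gene.

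The Tom positive library held 7568 barcodes and the Tom negative library 13604, of which 1255 and 1767 were myeloid by the rule. Ccl17-set cells had median depths of 21490 and 22561 UMIs, beside 20359 and 21137 in the other myeloid cells, meaning those of the 4 other sets. Summed over their cells the Ccl17-set cells gave 4153950 and 8018228 UMIs, so that 3 UMIs, taken as the limit that a count of 0 allows, are 0.722 and 0.374 CPM. The libraries shared 3660 barcodes. Among Ccl17-set cells, 52 Tom positive and 24 Tom negative barcodes were also in the other library, there with a median of 639 and 574 UMIs, and none was a Ccl17-set cell in both. The comparison between the sorts gives values with and without those barcodes.

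The set was carried by a minority of the cells it picked out in the Tom positive library and by a majority in the Tom negative library. Of 180 Tom positive Ccl17-set cells 82 (45.6%, 38.1 to 53.1) held any UMI of Ccl17, Ccl22 or Plet1, and of 338 Tom negative cells 221 did (65.4%, 60.05 to 70.4). The other 215 cells held none. A cell with none scores -0.37 standard deviations for the set, and these cells were picked because they scored lower still for the other sets, where their median highest score was -0.40. The rule therefore joined cells with the 3 transcripts, whose median score was 1.93, with cells low in all 5 sets, and both kinds are described separately for part of the results. Cells with a set UMI were also deeper, at medians of 26904 and 25065 UMIs against 15981 and 14522 in those without.

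Membership was close to the limit for many cells. Within 0.1 standard deviations of the next set lay 233 Ccl17-set cells, 215 of them without a set UMI, and 53 cells of other sets lay as close on the other side. For Ccr7, the highest Ccl17-set cell held 194 CPM and the lowest cell above the limit 206 CPM, with 4 cells between 100 and 200 CPM and 4 between 200 and 400 CPM. The cells above the limit, called Ccr7-high cells, had a median of 1924 CPM, so few cells sat near it. Of the 743 myeloid cells with a UMI of the 3 genes, 303 were Ccl17-set cells, 34 were Ccr7-high and 406 scored higher for another set. Ccl17-set cells nonetheless held 78.8% of those UMIs and Ccr7-high cells 13.8%.

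Ccl17 (ENSMUSG00000031780, chr8:94810453-94812036 of mm10) reached 919 and 1083 CPM in Tom positive and Tom negative Ccl17-set cells, against 8.33 and 16.5 CPM in the other myeloid cells. Single cells ranged from 0 to 19508 CPM in the Tom positive and to 15983 CPM in the Tom negative library, and the 10 highest cells held 64.8% and 33.4% of its UMIs. A few cells thus set much of the Tom positive level. Ccl17 was seen in 33.9% and 49.1% of Ccl17-set cells, and in 1.92% and 9.47% of fibroblasts, which should lack it and were deeper (medians of 40818 and 38353 UMIs). After thinning every cell to 5000 UMIs these shares were 28.3% and 40.8% against 0.596% and 1.19%. The rule picked cells by this gene, so their order is a description.

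Ccl22 (chr8:94745590-94751699, beside Ccl17 on the same chromosome) was rarer and more concentrated. It reached 7.22 and 43.8 CPM, from 30 and 351 UMIs, in 12 Tom positive and 43 Tom negative cells. The 10 highest cells held 93.3% and 88.9% of it, so its level rests on very few cells. Plet1 (chr9:50494525-50505482) stood at 263 and 398 CPM and was spread more evenly, with 46.2% and 21.5% of UMIs in the 10 highest cells. Ccl17 and Plet1 were often found in the same cell: both in 42 and 102 cells, Ccl17 without Plet1 in 19 and 64, and Plet1 without Ccl17 in 21 and 51. The plot of defining transcripts per cell shows this spread.

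**Figure D1:**
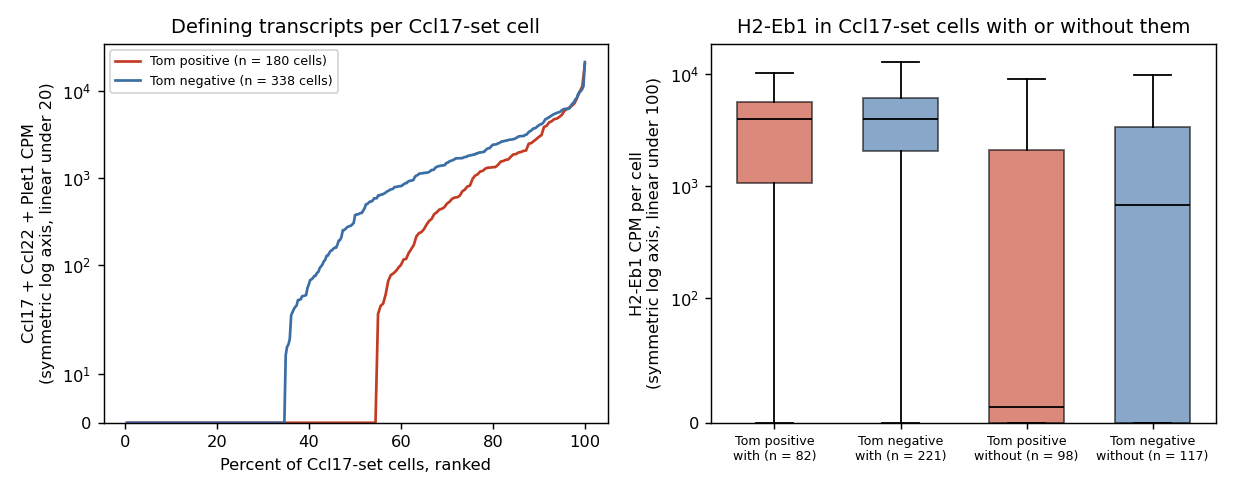
Left, the summed CPM of Ccl17, Ccl22 and Plet1 in each Ccl17-set cell, ranked within its library (symmetric log axis); the curves leave 0 only after the cells without a UMI, 98 of 180 in the Tom positive and 117 of 338 in the Tom negative library. Right, H2-Eb1 CPM per cell (symmetric log axis) in cells with or without a UMI of the 3 genes; boxes give the quartiles and median, whiskers the full range, and the median is higher in cells with a UMI in both libraries.

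Set against marker genes, the Ccl17-set cells carried MHC class II and macrophage transcripts together, with conventional dendritic cell genes such as Flt3 at low levels. H2-Eb1 (an MHC class II beta chain, chr17:34305867-34316674) stood at 2424 and 3134 CPM and Dcstamp (a fusion receptor of dendritic cells and osteoclasts, chr15:39745930-39760938) at 119.7 and 244 CPM, both higher than in the other myeloid cells at 583 and 1030 and at 49.3 and 61.7 CPM. Of the dendritic cell genes, the growth factor receptor Flt3 was at 0.481 and 5.49 CPM, the transcription factor Zbtb46 at 4.57 and 6.24 CPM and the dead-cell receptor Clec9a at 1.93 and 5.74 CPM. Xcr1, the chemokine receptor of cross-presenting dendritic cells, had no UMI in the Tom positive library, which allows up to 0.722 CPM, and 0.873 CPM in the Tom negative library. These levels are near 0. Macrophage genes were high: the complement subunit C1qa at 2133 and 1798 CPM, the lysozyme gene Lyz2 at 6278 and 5032 CPM, the growth factor receptor Csf1r at 428 and 398 CPM and Adgre1 (F4/80) at 147 and 104 CPM. Ccr2, the receptor by which monocytes leave the bone marrow, stood at 236 and 218 CPM, and Ly6c2 of classical monocytes at 6.98 and 9.35 CPM. Ccr4, the receptor for Ccl17 and Ccl22, was at 0 and 0.125 CPM. Of the genes the rule did not use, those of MHC class II thus fit the label's dendritic name, though the Retnla set shared them. Flt3, Zbtb46, Xcr1 and Clec9a were near 0, but they are only part of the dendritic cell lists. Of 7 core list genes at 10 CPM or more, 5 were at least 2-fold above the other myeloid cells and none lower. Among all genes at that level 1.18% were higher. Descent from monocytes cannot be read from these counts.

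**Figure D2:**
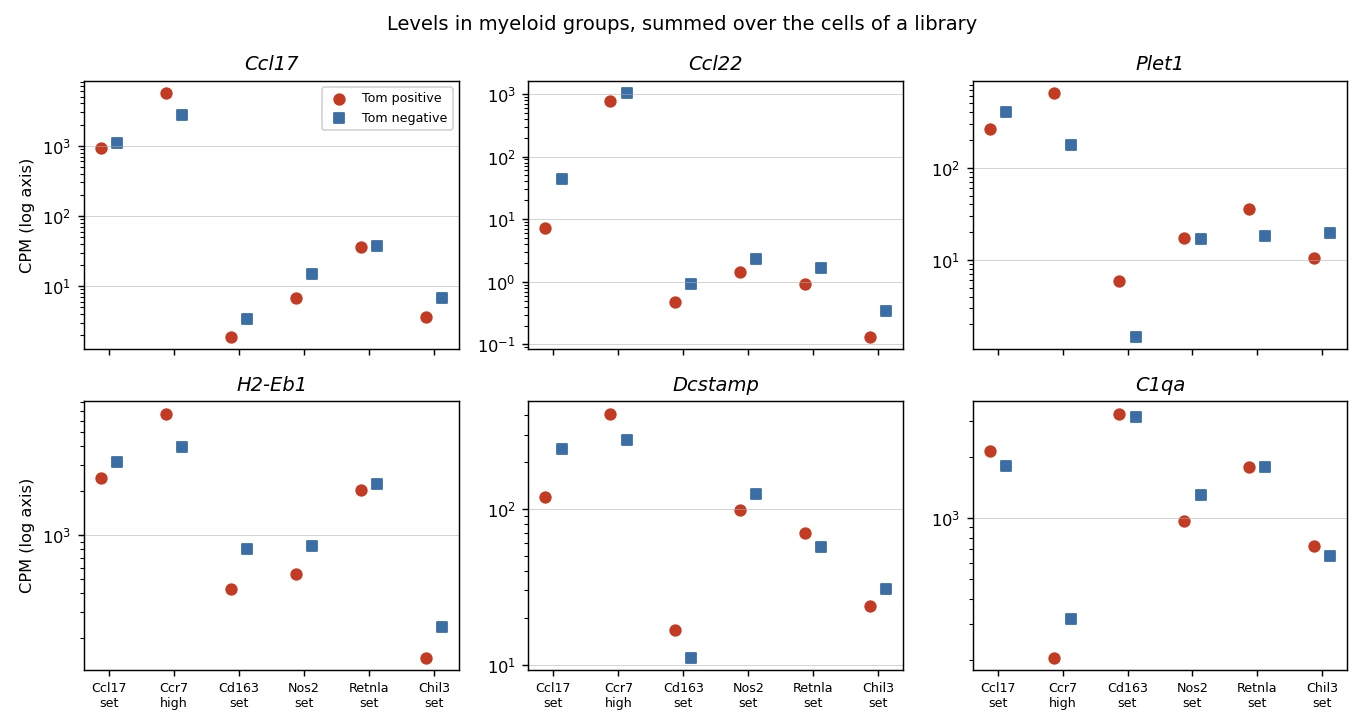
CPM (log axis) of 6 genes summed over the cells of each of 6 myeloid groups, by library; the groups are named by their gene set, and Ccr7 high marks cells with a highest Ccl17 score above the Ccr7 limit (3 Tom positive and 32 Tom negative cells). Ccl17-set cells stand far above the 4 other sets in Ccl17 and Plet1, share H2-Eb1 with the Retnla set, and keep C1qa near the level of that set while Ccr7-high cells are low in it.

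Against the other myeloid cells as a pool, the Ccl17-set cells were higher in antigen presentation genes, which the Retnla set shared. The MHC class II list summed to 19386 and 24435 CPM in Tom positive and Tom negative Ccl17-set cells. The Retnla set stood at 18314 and 20041 CPM, and the Cd163, Nos2 and Chil3 sets between 3639 and 10381 CPM. Of 3748 genes at 50 CPM or more in one of the groups, 27 were at least 2-fold higher in both libraries (0.720%) and 60 at least 2-fold lower (1.60%), counting the genes of the rule. H2-Eb1 was 4.16 and 3.04 times as high in the Tom positive and Tom negative library, H2-Ab1 (the second beta chain) 3.44 and 2.76 times, and H2-Aa (the alpha chain) 3.51 and 2.68 times. In levels, H2-Aa reached 3044 and 4119.5 CPM, against 866 and 1536 CPM in the other myeloid cells. Cd74, the invariant chain that escorts class II molecules, was 2.96 and 2.32 times as high, and H2-DMa and H2-DMb1, which load peptide onto them, 2.36 and 1.97 and 2.65 and 2.22 times. Of the MHC class II list 7 of 10 measured genes (10 CPM or more) were at least 2-fold higher in both libraries and none lower, where 1.18% and 1.45% of all genes at that level were. Its median log2 difference was 1.67 and 1.32, against 0.04 and 0.03 over all such genes. Ciita, the master regulator of class II genes, was among them at 27.2 and 33.3 CPM against 5.63 and 10.1, while the proteases Ctss (1829 and 1817 CPM against 1381 and 1584) and Lgmn (984 and 705 CPM against 1204 and 1019.7) were not, and H2-DMa stayed just under the limit in the Tom negative library.

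The same pattern against the pooled other myeloid cells was seen cell by cell. Of the Ccl17-set cells, 90 of 180 cells sorted as Tom positive and 236 of 338 sorted as Tom negative reached 1000 CPM of H2-Eb1 (50% and 69.8%), against 15.9% and 29.4% of other myeloid cells. Its median cell held 929.6 and 3106 CPM and its highest 10305 and 12801 CPM, with cells at 0 in both libraries.

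Windows upstream of genes higher in these cells than in the other myeloid cells were read for 2 short motifs. One is known for STAT6, the factor that acts behind the IL-4 receptor. The other is the Y box, bound by NF-Y in class II promoters. The STAT6-type motif, TTC and GAA with any 4 bases between them, was in 6.95% of 32851 mouse promoter windows (250 bases before to 50 after a start, RefSeq on GRCm38.p6, both strands searched), and the Y box ATTGG on either strand in 37.4% of them, and none of the 3 windows printed here held both. The Ccl17 window on the plus strand (chr8:94810203-94810502) held one STAT6-type match 154 bases before the start, that of H2-Eb1 (chr17:34305617-34305916, plus strand) a Y box 59 bases and its reverse complement 35 bases before it, and that of H2-Aa (chr17:34287774-34288073, minus strand) a Y box 48 bases before it. They are shown because Ccl17 defines the cells and H2-Eb1 and H2-Aa were among the genes most above the other myeloid cells, with the matches in capitals.
Ccl17: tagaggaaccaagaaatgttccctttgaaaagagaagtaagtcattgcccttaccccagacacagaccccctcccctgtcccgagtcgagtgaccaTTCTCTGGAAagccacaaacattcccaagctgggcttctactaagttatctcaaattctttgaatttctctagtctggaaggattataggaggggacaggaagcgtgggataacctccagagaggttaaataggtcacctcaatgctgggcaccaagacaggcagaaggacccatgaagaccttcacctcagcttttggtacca
H2-Eb1: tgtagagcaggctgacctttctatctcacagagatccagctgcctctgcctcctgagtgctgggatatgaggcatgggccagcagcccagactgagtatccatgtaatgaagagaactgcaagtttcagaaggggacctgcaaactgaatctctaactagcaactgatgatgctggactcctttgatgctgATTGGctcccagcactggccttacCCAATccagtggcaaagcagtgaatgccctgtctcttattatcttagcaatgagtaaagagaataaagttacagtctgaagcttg
H2-Aa: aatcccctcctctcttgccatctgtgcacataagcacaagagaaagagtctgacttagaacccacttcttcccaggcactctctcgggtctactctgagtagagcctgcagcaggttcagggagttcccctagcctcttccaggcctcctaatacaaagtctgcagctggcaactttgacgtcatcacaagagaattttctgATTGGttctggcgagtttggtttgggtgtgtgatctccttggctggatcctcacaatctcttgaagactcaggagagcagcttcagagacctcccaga
Of the other windows read, that of Itgax held both motifs, those of Plet1, Mgl2 and H2-DMb1 a Y box, 1 of 2 of H2-DMa a Y box, and those of Ccl22 and Il1r2 neither, and a match is a description of letters and not evidence of binding. H2-Ab1, Cd74 and Dcstamp were not searched.

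Beyond class II, the genes most above the other myeloid cells included receptors and lectins. Il1r2, a decoy receptor for interleukin 1, stood at 796 and 974 CPM against 244 and 383 CPM (3.27 and 2.54 times). Mgl2, a galactose-binding lectin of dendritic cells and alternatively activated macrophages, stood at 416 and 521 CPM against 128 and 206 (3.25 and 2.53 times). Itgax, which encodes CD11c, was 2.17 and 2.16 times as high, the serotonin receptor Htr7 2.94 and 2.46 times and Dcstamp 2.43 and 3.95 times. All of these exceeded the 2-fold limit in both libraries. Tmem176a and Tmem176b, paired membrane proteins of immature dendritic cells, were 2.26 and 2.396 and 2.58 and 2.19 times as high, and the cysteine protease inhibitor Cst3 2.31 and 1.97 times. The orphan nuclear receptor Nr4a3 was at 134 and 204 CPM against 71.4 and 95.3 (1.88 and 2.14 times). The interferon-inducible Ifitm1 (2.53 and 2.08 times), the phospholipase-like genes Plcl1 (2.27 and 2.19) and Plbd1 (1.98 and 1.84), and Tmem131 (1.95 and 2.16) and AW112010 (2.26 and 1.82) completed the 20 highest, which were ranked by the smaller of the 2 ratios. Of the 20, H2-DMa, Cst3, Tmem131, Nr4a3, Plbd1 and AW112010 were under 2-fold in at least one library.

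Lists of dendritic cell genes leaned the same way against the other myeloid cells together, at low levels. Of all genes at 10 CPM, 1.18% were at least 2-fold higher in both libraries and 1.45% lower. The Retnla set shared much of this. Its type 2 dendritic cell list summed to 1681 and 1675 CPM, against 1493 and 1602 CPM in Ccl17-set cells. Its type 1 list summed to 531 and 534 against 492 and 517 CPM, and its core list to 257 and 240 against 321 and 392 CPM. Of the conventional dendritic cell core list, 5 of 7 measured genes were at least 2-fold higher and none lower (medians 1.12 and 1.44). They were Itgax, Kmo (10.8 and 14.3 CPM against 1.08 and 1.78), Dpp4 (7.94 and 14.8 against 2.07 and 3.13), Kit (19.7 and 21.8 against 6.46 and 3.88) and Ffar2 (8.91 and 12.8 against 3.56 and 4.097), all but Itgax under 25 CPM. Of the type 2 dendritic cell list 4 of 10 were higher, Mgl2, H2-DMb2, Ltb and the transcription factor Irf4 (27.2 and 25.2 CPM against 8.37 and 10.9), and Cd209a was at 2.17 and 16.7 CPM. Of the type 1 list 1 of 7 was higher, the integrin Itgae. The ligand Pdcd1lg2 (PD-L2) was the 1 gene of 16 costimulation and checkpoint genes past the limit, at 65.96 and 93.2 CPM against 20.1 and 28.9, while Cd86 (598 and 631 against 457 and 456) and Cd80 (284 and 337 against 185 and 221) stayed under it.

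The macrophage list did not set the cells apart as a whole, while the monocyte list leaned lower in part of its genes. Their counts stand beside 1.18% of all genes at 10 CPM at least 2-fold higher in both libraries and 1.45% lower. Of 17 macrophage genes none was 2-fold higher and 4 were lower (medians -0.06 and -0.18), 2 of which, Cd163 and Folr2, the rule had fixed. The others were the platelet-type chemokine Pf4 and Gpnmb. Of 11 monocyte genes 4 were lower, F13a1, Itgam, the matrix proteoglycan Vcan and Chil3, the last a gene of the rule. Of 17 genes of the IL-4 receptor and STAT6 list 4 were higher, Pdcd1lg2, Mgl2 and the rule genes Ccl17 and Ccl22, and 4 lower. The lower ones were arginase 1 (Arg1, 2.93 and 2.75-fold lower), Pparg (3.502 and 4.26-fold) and the rule genes Retnla and Chil3. Outside the rule's genes, Pdcd1lg2 and Mgl2 thus went one way and Arg1 and Pparg the other. Among 12 GM-CSF and STAT5 genes the 1 past the limit was Plet1, a gene of the rule. The growth factor's receptor chains Csf2ra (167 and 185 CPM against 115 and 154) and Csf2rb (289 and 299.6 against 221 and 255) were under it.

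Below the other myeloid cells were, among others, Spp1, several chemokines and a few hypoxia genes. Spp1 (osteopontin, a secreted matrix glycoprotein of tumour macrophages) stood at 1745 and 1613 CPM against 6875 and 6273 CPM, 3.94 and 3.89-fold lower in the Tom positive and Tom negative library. Ppbp, a platelet chemokine, was 6.48 and 8.001-fold lower, Cd93 (a receptor of phagocytes and endothelium) 4.63 and 4.53-fold, the clotting factor subunit F13a1 3.57 and 4.87-fold and Pf4 2.905 and 2.97-fold. Egln3, a hypoxia-induced oxygen sensor, was 5.13 and 4.46-fold lower, and Adm (3.46 and 3.57-fold), Bnip3 (2.59 and 2.32-fold) and Ndrg1 (2.84 and 2.19-fold) made up the 4 of 20 genes of the glycolysis and hypoxia list past the limit, whose medians were -0.47 and -0.44. None of that list was higher. It summed to 9283 and 10062 CPM in Tom positive and Tom negative Ccl17-set cells. The Retnla set was alike at 10588 and 10172 CPM, and the Cd163 set lower at 6429 and 7927.5 CPM. The Nos2 set stood at 18993 and 18555 CPM and the Chil3 set at 14580 and 14966 CPM, so a low level was not particular to Ccl17-set cells. Of all genes at 10 CPM, 1.18% were at least 2-fold higher in both libraries and 1.45% lower. Mctp1, Hspa1b, Fbxl5, Cacna1d, Sox4 and Plcb1 made up the rest of the 12 lowest, between 2.93-fold (Plcb1, Tom negative) and 5.09-fold (Hspa1b, Tom positive) lower. Of 19 chemokines 6 were lower: Ccl2, which recruits monocytes (202 and 157 CPM against 542 and 439), Ccl3 (188 and 187 against 539 and 415), Ccl8, Ccl12, Cxcl10 and the rule gene Cxcl3. The 3 higher were the rule genes Ccl17 and Ccl22, and Ccl5 (27.9 and 14.8 CPM against 4.27 and 5.098). The chemokine list summed to 7111 and 8897 CPM in Ccl17-set cells. The Retnla set, the next lowest of the 5 sets, stood at 9849 and 9862 CPM. Il1b, the interleukin that Il1r2 binds, stood at 1389 and 1843 CPM against 642 and 1020 CPM.

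**Figure D3:**
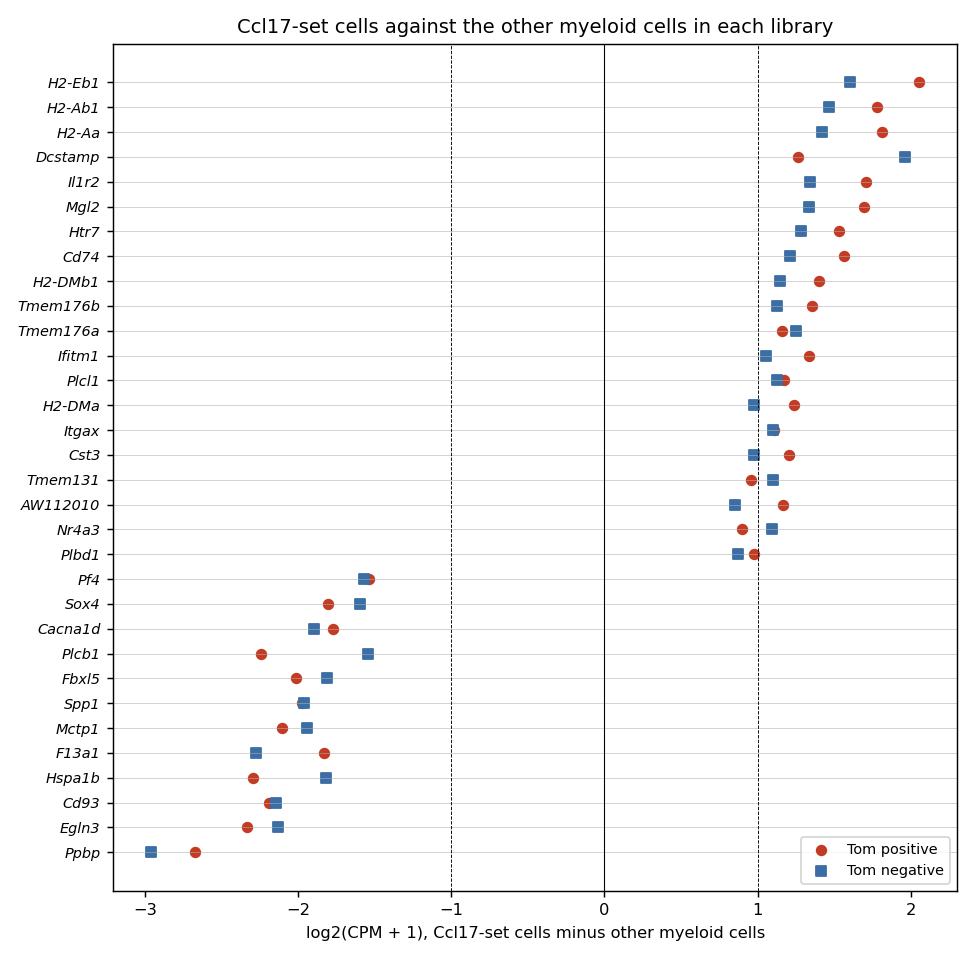
Difference in log2(CPM + 1) between Ccl17-set cells and the other myeloid cells, one row per gene and one point per library, for the 20 highest and 12 lowest ranked genes outside the rule; dashed lines mark 2-fold. H2-Eb1 leads the upper genes at 2.05 and 1.60, and Ppbp is lowest at -2.67 and -2.96. Genes were ranked by the smaller of the 2 libraries' ratios, so a like sign in both libraries was fixed by the choice.

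Of the like groups, the Retnla set (macrophages with the secreted protein Retnla and the ribonuclease Ear2) differed least and the Ccr7-high cells most. Against the Retnla set 14 of 3700 genes were 2-fold higher in both libraries (0.378%) and 20 lower (0.541%). The higher ones included Il1r2 (796 and 974 CPM against 252 and 315), Ifitm1 (552 and 493 against 264 and 174), Tnfrsf9, a costimulatory receptor (403 and 416 against 203 and 172), Mfge8, Dst and the collagen-degrading protease Ctsk. The lower ones included Vcan (53.9 and 43.8 against 163 and 144), fibronectin (Fn1, 2261 and 2253 against 4773 and 4327), Cacna1d, Plcb1, Fbxl5 and Wfdc17. H2-Eb1 was nearly as high in the Retnla set, at 2010 and 2219 CPM, within 1.5-fold of the Ccl17-set cells. Against the Chil3 set (monocyte-like cells with Chil3, Cxcl3 and Car4) 74 of 3788 genes were higher (1.95%) and 84 lower (2.22%). H2-Eb1 stood at 147 and 235 CPM there, Mgl2 at 25.2 and 46.8 CPM and Tmem176b at 17.001 and 20.9 CPM. Dach1, Wfdc21, Ppbp, Cd93, Plcb1 and Egln3 were the lowest, with Plcb1 at 536 and 597 CPM in the Chil3 set.

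Ccr7-high cells are compared in the Tom negative library, where they numbered 32, since the Tom positive library held 3. There 521 of 3767 genes were at least 2-fold higher in Ccl17-set cells (13.8%) and 418 lower (11.1%). Ccr7-high cells had 2723 CPM of Ccl17 and 1027 CPM of Ccl22, above the 1083 and 43.8 CPM of Ccl17-set cells, but 176 CPM of Plet1 against 398. The actin-bundling Fscn1 (814 against 4.24 CPM), Cacnb3 (346 against 1.62), the amino acid oxidase Il4i1 (274 against 3.99), Syn3, Slc22a23 and Serpinb6b were lowest in Ccl17-set cells. Highest were the collagenase Mmp13 (144 against 1.56 CPM), the eosinophil chemokine Ccl24 (618 against 14.03), Mmp9 (548 against 12.5), F13a1, Hist1h2ap and Ctsk. C1qa was at 316 CPM in Ccr7-high cells, and Flt3 and Zbtb46 both at 129 CPM. Class II levels were alike, with H2-Eb1 at 3998 against 3134 CPM.

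Within the Ccl17-set cells, those with a UMI of Ccl17, Ccl22 or Plet1 and those without differed in many other genes. Of 3902 genes, 76 were at least 2-fold higher in both libraries in cells with a UMI (1.95%) and 65 lower (1.67%). The split uses genes of the rule, and the cells with a UMI were deeper, so these values are a description. Dcstamp stood at 211 and 320.2 CPM with and 11.03 and 42.7 CPM without, 19.2 and 7.503 times as high in the Tom positive and Tom negative library. Ifitm1 was 12.3 and 6.36 times as high, Il1r2 11.01 and 4.41 times, Ccl24 11.1 and 4.37 times, H2-DMb2 8.77 and 8.21 times, Pdcd1lg2 8.07 and 7.71 times, Itgax 5.25 and 4.01 times and the interleukin 7 receptor Il7r 6.71 and 5.75 times. The genes that set the group apart from other myeloid cells thus sat mainly in cells with a UMI. Mmp13, Tnip3, Ece1 and Mfge8 were 3.45 to 5.50 times as high. The cells without were higher in resident-type macrophage genes: F13a1 at 709 and 339 CPM against 49.3 and 66.7, the transcription factor Maf at 299.5 and 216 against 68.9 and 37.1, Pf4 at 1599 and 1113 against 471 and 319, the chemokine Ccl7 at 375 and 231 against 14.2 and 50.7 and the selenium carrier Selenop at 453 and 341 against 123 and 93.7 CPM. Clec4a1, Aoah, Ms4a7, Ms4a6b and Plcb1 were lower with a UMI as well. C1qa was at like levels in both, 2153 and 1742 CPM with and 2111 and 1946 CPM without.

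Clustering the Ccl17-set cells alone gave 8 sub-clusters, which are described by their leading genes and not tested, since the same genes formed them. Sub-cluster 6 (97 cells, 94 with a set UMI) was led by Ccl22, the fatty acid receptor Cd36, the arginine transporter Slc7a2, the elastase Mmp12 and Ccl17, and held 2789 CPM of Ccl17, 519 CPM of Dcstamp and 4488 CPM of H2-Eb1. Sub-cluster 8 (44 cells, 40 with a set UMI) was led by the gut-homing receptor Ccr9, the lectin Cd209a, Mucl1, Ctnnd2 and the kynurenine enzyme Kmo. It had the most H2-Eb1 (6347 CPM), Ccl17 (3267 CPM) and Flt3 (41.9 CPM) of the 8 and low C1qa (472 CPM) and Lyz2 (1286 CPM). It also held Siglech, a plasmacytoid dendritic cell gene found in no other sub-cluster, at 67.9 CPM, and Ccr9 is on the plasmacytoid list as well. Of all Ccl17-set cells, 1 Tom positive and 2 Tom negative cells reached 200 CPM of Siglech, none with a set UMI. Cells with 500 CPM of Siglech, Ly6d, Klk1 and Ccr9 together also numbered 1 and 2. They held 98.6% and 94.9% of the UMIs of these genes in Ccl17-set cells. The cells nearest to a dendritic profile, conventional or plasmacytoid, were thus few. Sub-cluster 1 (75 cells, 67 with a set UMI) was led by the protease Adamdec1, Spon1, Adgrl3, Mmp13 and Ccl24, and it carried Plet1 (591 CPM) with little Ccl17 (51.6 CPM) and 3304 CPM of C1qa. Sub-cluster 5 (35 cells, 22 with a set UMI) was led by the calcium receptor Casr, the complement component C9, Rbm44, Dnah12 and Cadm4, at 1213 CPM of Ccl17. Plet1 and Ccl17 were therefore not in a fixed ratio across sub-clusters.

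The remaining sub-clusters held fewer cells with the set. Sub-cluster 2 (107 cells, 39 with a set UMI) was led by Plcb1, Vcan, Thbs1, Ccr2 and Plac8, genes found in monocytes, with Ccr2 at 472 CPM. Sub-cluster 3 (88 cells, 7 with a set UMI) was led by Vcam1, F13a1, Maf, Ms4a7 and Pf4, genes of tissue macrophages, with 11943 CPM of Apoe and 3113 CPM of C1qa. Sub-cluster 4 (62 cells, 33 with a set UMI) joined cycling cells (Mki67 at 203 CPM) with cells high in Ctsk (1799 CPM), and was led by Ctsk, Reln, Cacnb2, Hist1h2ap and Magi1. Sub-cluster 7 (10 cells, 1 with a set UMI) was led by the granzymes Gzmc, Gzmb and Gzmd, Il2rb and Kcnq5. It held 12.3 CPM of Lyz2 and 552 CPM of the cytotoxic granule gene Nkg7, so these 10 cells passed the myeloid limits on Tyrobp and Fcer1g with a lymphocyte profile.

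**Figure D4:**
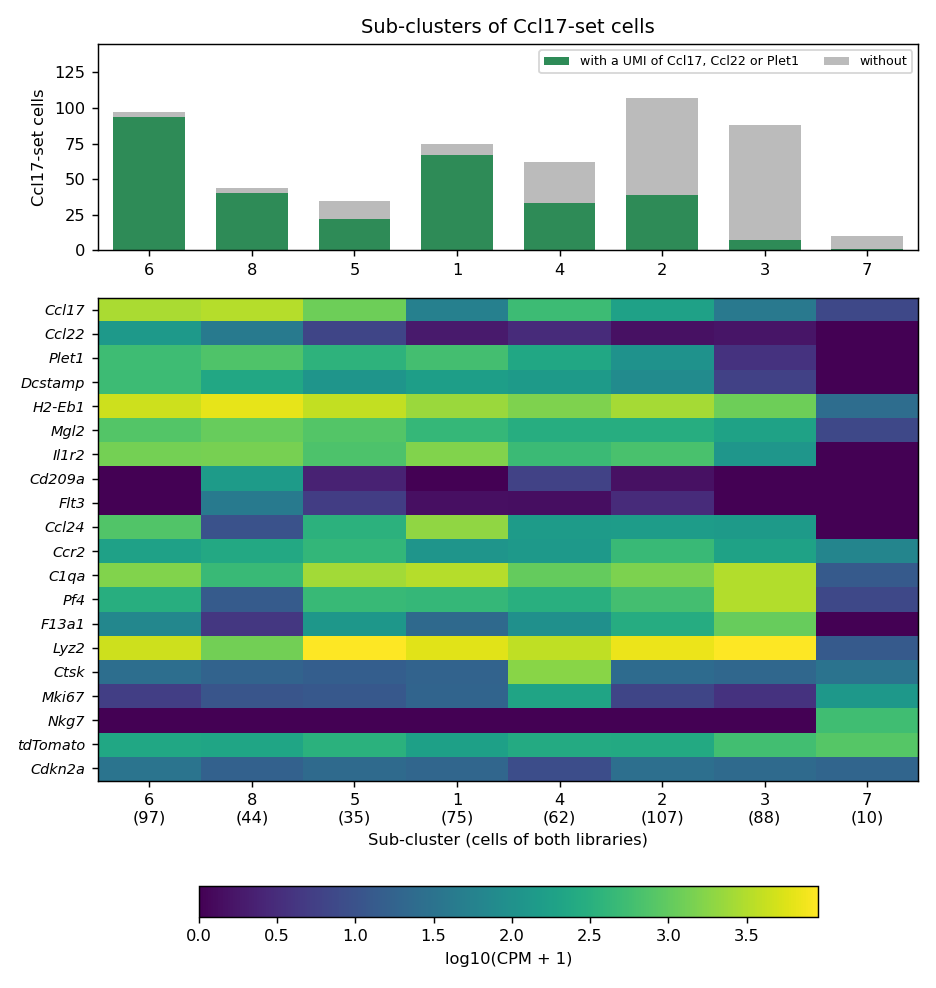
Top, cells of both libraries in each of the 8 sub-clusters of Ccl17-set cells, split by whether they held a UMI of Ccl17, Ccl22 or Plet1. Bottom, log10(CPM + 1) of 20 genes summed over each sub-cluster (colour scale); sub-clusters 6 and 8 are highest in Ccl17, 3 in Pf4 and F13a1, 4 in Ctsk and 7 in Nkg7.

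Between the sorts, the reporter separated the Ccl17-set cells as labelled. tdTomato stood at 759.5 and 33.5 CPM in Tom positive and Tom negative cells, a log2 difference of 4.46. At 500 CPM or more were 115 of 180 Tom positive cells (63.9%, 56.4 to 70.9) and 0 of 338 Tom negative cells, which allows up to 1.09%. Among other Tom positive myeloid cells the share was 76.5%. Low counts were common: 45.3% of Tom negative Ccl17-set cells held at least 1 tdTomato UMI, beside 37.7% of deeper Tom negative fibroblasts. Cdkn2a, whose count sums the p16 and Arf transcripts, was at 31.1 and 15.8 CPM (129 and 127 UMIs), 1.96 times as high in Tom positive cells (1.52 to 2.53). The other myeloid cells stood higher in both sorts, at 53.3 and 25.6 CPM. In cells with a set UMI it was 38.2 and 15.3 CPM and in those without 22.6 and 17.3 CPM. With mitochondrial UMIs limited to 5% the log2 difference over all Ccl17-set cells went from 0.93 to 0.50, under 1.5-fold. By sub-cluster its ratio was 3.54 (1.84 to 6.99) in sub-cluster 1, 2.37 (1.31 to 4.28) in 2, 2.52 (1.58 to 4.01) in 6 and 1.05 (0.492 to 2.27) in 3, and intervals in sub-clusters 3, 4 and 5 included 1.

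Ccl17-set cells made up a smaller share of the myeloid cells in the Tom positive sort. They were 14.3% (12.4 to 16.4) of Tom positive and 19.1% (17.3 to 21.04) of Tom negative myeloid cells, a ratio of 0.7498 (0.622 to 0.901). Counting cells with a UMI of the 3 genes alone, the shares were 6.53% and 12.5% and the ratio 0.522 (0.4004 to 0.676), while cells without were 7.81% and 6.62%. The lower share in the Tom positive sort was therefore one of cells that held the transcripts. This order depends on how scores were standardised: within each library separately, which forces both to the same mean, the shares were 17.2% and 11.8% and the ratio 1.46. The gate itself sorted cells by tdTomato, and within the Tom positive library 42.6% of 115 reporter-high cells and 50.8% of 65 other Ccl17-set cells held a set UMI, with intervals that overlap (33.4 to 52.2 and 38.1 to 63.4). Ccr7-high cells numbered 3 of 1255 and 32 of 1767 myeloid cells.

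Since the sorts differ in the share of cells with a set UMI, part of the differences between them are also given for cells with a UMI. Differences given once are for all Ccl17-set cells and were not separated from that share. Of 3539 genes at 50 CPM, 43 were at least 1.5-fold higher in Tom positive cells (1.22%) and 49 lower (1.38%), with a median log2 difference of 0.01 over all of them. Without barcodes found in both libraries, 113 were higher and 81 lower. That exclusion also moved the log2 differences of Ccl17 from -0.24 to -0.90, of Plet1 from -0.60 to -0.89 and of Ccl22 from -2.45 to -0.48, and it left 0.72 for Apoe, 1.27 for Maf, 1.17 for Pf4 and -1.30 for Dcstamp. In the other myeloid cells 39 of 3478 were higher (1.12%) and 21 lower (0.604%). Genes higher in Tom positive cells included several that macrophages express. Apoe, the lipid carrier, stood at 5509 and 3203 CPM (1.72 times, 1.69 to 1.75) and at 3822 and 2691 CPM in cells with a UMI (1.42 times). Pf4 stood at 988 and 537 CPM (1.84 times, 1.48 with a UMI), Maf at 175 and 86.2 CPM (2.03 times, 1.85 with a UMI) and the scavenger receptor Stab1 at 115 and 56.99 CPM (2.01 times, 1.53 with a UMI). These kept their direction in cells with a UMI, with smaller differences. In cells with at least 100 CPM of the set, 73 and 194 in number, the log2 difference was 0.18 for Apoe, 0.21 for Maf and -0.0063 for Pf4, so that little of it was left. F13a1 and Ccl7 did not: F13a1 stood at 351 and 141 CPM over all cells (2.49 times) but at 49.3 and 66.7 CPM in cells with a UMI (0.739 times), and Ccl7 at 179 and 100.3 CPM (1.79 times) but at 14.2 and 50.7 CPM with a UMI (0.2803 times). Ms4a7, Selenop, Fkbp5, Lst1 and Dock8 were 1.53 (Dock8) to 1.88 (Ms4a7) times as high, and 1.18 (Dock8) to 1.53 (Ms4a7) times with a UMI.

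The gene furthest apart, the granzyme Gzmc, stood at 211 and 13.5 CPM (15.6 times), and 3 cells of each library held 97.9% and 99.1% of its UMIs. Its level moves with markers of T and natural killer cells, whose list of 10 genes summed to 56.3 and 19.7 CPM in Ccl17-set cells and 6.298 and 3.66 CPM in the other myeloid cells. Such genes at 500 CPM were found in 6 Tom positive and 2 Tom negative Ccl17-set cells. Without those and the 1 and 2 cells with plasmacytoid dendritic cell genes, the log2 difference of Gzmc went from 3.87 to 1.62 (2.12 without barcodes in both libraries), and 43 genes were higher and 49 lower as before.

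Genes lower in Tom positive cells included Dcstamp, Acp5 and Ctsk, all known from osteoclasts. Dcstamp stood at 119.7 and 244 CPM (2.04-fold lower) and at 211 and 320.2 CPM in cells with a UMI. The acid phosphatase Acp5 stood at 326 and 618 CPM (1.898-fold lower) and at 340.3 and 571 CPM with a UMI, and in the other myeloid cells at 265 and 271 CPM. Ctsk stood at 102 and 503 CPM (4.92-fold lower), and 3 cells held 86.1% of it in the Tom positive and 47.8% in the Tom negative library. A handful of Ctsk-rich cells, 2 Tom positive and 10 Tom negative at 1000 CPM or more, thus set its level, and fibroblasts, where 98.4% and 98.8% of cells held it, express it widely. Of the fusion and osteoclast list 5 of 9 measured genes were at least 1.5-fold lower and none higher, against 2.48% lower and 4.01% higher among all genes at 10 CPM. They were Dcstamp, its partner Ocstamp (22.1 and 43.8 CPM), the proton pump subunit Atp6v0d2 (32.98 and 59.9 CPM), Acp5 and Ctsk, and the median was -0.84 (-0.60 in cells with a UMI, 0.04 in the other myeloid cells). Without the 12 Ctsk-rich cells the median was -0.16, and with mitochondrial UMIs limited to 5%, which left 130 and 202 cells, it was 0.088. Under those 2 settings the log2 difference was -0.44 and -0.14 for Acp5 and -1.01 and -0.86 for Dcstamp, so Dcstamp held and the list did not. Ctsk itself turned to 0.51 at the 5% limit, and it was -0.92 without the Ctsk-rich cells, -0.24 with a lead of 0.5 standard deviations over the next set and -0.23 at 100 CPM of the set. Without barcodes in both libraries, Ctsk was at -3.78, Acp5 at -1.29 and the list's median at -1.26.

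Hist1h2ap, a histone gene, was 4.35-fold lower in Tom positive cells, with a like ratio in the other myeloid cells (0.169 against 0.2298). The difference was thus of like size inside and outside the Ccl17-set cells. The adhesion receptor Adgrl3 (46.7 and 103 CPM), Mmp13 (76.6 and 144 CPM), the kinase Fyn (93.2 and 159 CPM), Gpr137b (64.5 and 107 CPM) and lipoprotein lipase (Lpl, 89.1 and 138 CPM) were 1.55-fold to 2.195-fold lower. Among 18 NF-kB response genes 4 were lower and none higher (median -0.22; -0.41 with a UMI, -0.19 in the other myeloid cells), against 2.48% lower and 4.01% higher among all genes at 10 CPM. They were the inhibitors Tnfaip3 (117 and 181 CPM, 0.485 times with a UMI) and Nfkbia (389.5 and 674 CPM), and Bcl3 and Traf1. Tnip3, a partner of Tnfaip3, was 1.72-fold lower (69.6 and 120.0 CPM).

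**Figure D5:**
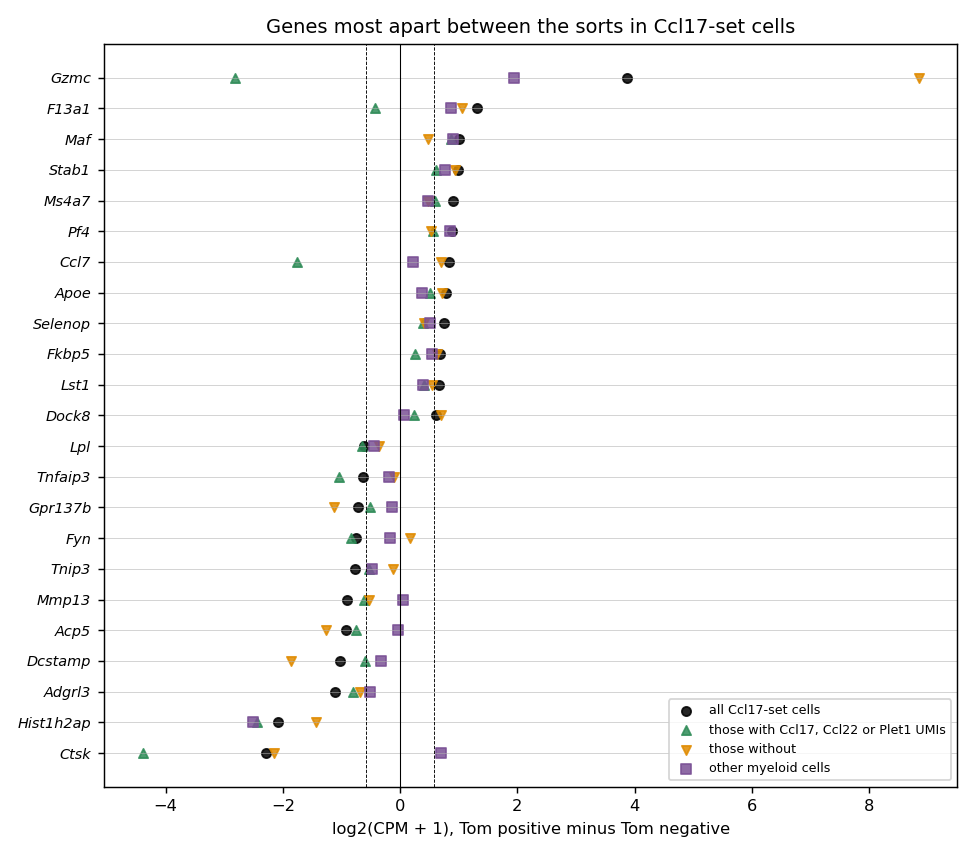
Difference in log2(CPM + 1), Tom positive minus Tom negative, for the 12 highest and 11 of the 12 lowest ranked genes: all Ccl17-set cells (circles), those with (triangles up) and without (triangles down) a UMI of Ccl17, Ccl22 or Plet1, and the other myeloid cells (squares); dashed lines mark 1.5-fold. Gzmc, F13a1 and Ccl7 lie on the other side of 0 in cells with a UMI, Ctsk lies on the other side in the other myeloid cells, and Hist1h2ap is low in each of these.

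The chemokines of the set were also lower or level. Ccl22 was 0.165 times as high in Tom positive cells (0.1096 to 0.2398), Plet1 0.659 times (0.615 to 0.706) and Ccl17 0.849 times (0.817 to 0.882). In cells with a UMI Ccl17 stood at 1696 and 1493 CPM and Plet1 at 485 and 549 CPM, so most of their difference followed the number of cells with a UMI. Since the rule chose cells by these genes, the values are a description. Of 18 measured chemokines 3 were higher (Ccl5, Ccl7, Ccl8) and 6 lower, among them the neutrophil attractants Cxcl1 (22.1 and 66.6 CPM) and Cxcl2 (1541 and 2527 CPM) and the T cell attractant Cxcl9 (20.2 and 43.5 CPM), with a median of -0.23. The others were Ccl4, Ccl22 and Cxcl3, and in cells with a UMI the list's median was -0.34. Among all genes at 10 CPM 4.01% were higher and 2.48% lower. Of the secreted inflammatory factors linked to senescence, 3 of 27 were higher and 7 lower (median -0.06, and -0.22 in cells with a UMI). Il1a stood at 121 and 242 CPM and Il1b at 1389 and 1843 CPM.

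MHC class II genes were lower in Tom positive cells by less than 1.5-fold. None of 10 passed that limit, and the median was -0.29 (-0.45 without barcodes in both libraries). H2-Eb1 was 0.773 times (0.756 to 0.792), H2-Aa 0.739 times and Cd74 0.728 times as high in Tom positive cells. In cells with a UMI the list's median was -0.01, with H2-Eb1 at 3547 and 3759.8 CPM, so the sorts barely differed there. In the other myeloid cells it was -0.55. Reporter-high Tom positive cells held 2209 CPM of H2-Eb1 and 98.2 CPM of Dcstamp, and the remaining Tom positive cells 2806 and 158 CPM, which lies between the former and the Tom negative cells. Plet1 followed the same order at 207, 362 and 398 CPM, while Ccl17 did not, at 979.5, 812 and 1083 CPM.

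The counts of the remaining lists stand beside 4.01% of all genes at 10 CPM higher and 2.48% lower. Counts of 1 or 2 genes in a list are too few to set against those shares. Macrophage genes stood higher in Tom positive cells, 3 of 14 past 1.5-fold (Maf, Pf4, Apoe) and none lower. Their median was 0.39 (0.29 with a UMI, 0.16 in the other myeloid cells). C1qa stood at 2133 and 1798 CPM, Mrc1 (the mannose receptor) at 1245 and 962 CPM and Trem2 (a lipid receptor) at 208 and 152 CPM, all under 1.5-fold. The median of the costimulation and checkpoint list was -0.14, with 1 of 16 lower (Cd200) and none higher. That of the GM-CSF and STAT5 list was -0.21 (1 of 12 lower, Plet1) and that of the IL-4 receptor and STAT6 list -0.07 (2 of 14 lower, Ccl22 and Chil3). Glycolysis and hypoxia genes had none of 19 past the limit and a median of -0.07. Of the cell cycle inhibitor and p53 list, Cdkn2a was the 1 gene of 11 higher, and Cdkn1a (p21) stood at 436 and 519.9 CPM. The dendritic cell core list had 1 of 7 lower (Dpp4, median -0.26).

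Markers of other cell types moved with the sorts as follows, and their part in these results was not tested. The fibroblast list (8 genes) summed to 1225 and 1591 CPM in Tom positive and Tom negative Ccl17-set cells and to 1368 and 1635 CPM in other myeloid cells. The endothelial list (8 genes) summed to 146 and 103 CPM against 249 and 84.5 CPM, and the neutrophil list (8 genes) to 43.1 and 44.6 CPM against 142 and 126 CPM. The endothelial order between sorts was thus the same in both groups of cells. Of the epithelial list 2 of 8 genes were at 0 in Ccl17-set cells, with sums of 12.3 and 8.23 CPM.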

How the data were processed

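Per the labels, stromal cells of allografted pancreatic tumours were sorted by tdTomato, and 1 library per sort was built with the 3' chemistry (version 3.1) of 10x Genomics. The authors deposited UMI counts per gene and barcode. The submitters' processing notes name Cell Ranger 7.0.1 and the mm10 genome, and the calling of cells is not given in the sources used here. Per the file headers and values the counts are whole numbers over 31054 features, with a lowest barcode total of 500.

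Cells were chosen by the rule in the results, from counts per 10000 in log1p form. The gene sets, lists and members were chosen with earlier results of these data known. Counts were summed per library over each group and scaled to CPM, differences are of log2(CPM + 1), and ratios are of plain CPM. Genes at 50 CPM in a compared group were counted as called at 1.5-fold between sorts and at 2-fold in both libraries between groups; lists used 10 CPM. The calculation was tested on simulated counts. Named genes are the markers and rule genes, the 20 highest and 12 lowest against other myeloid cells, the 12 highest and 12 lowest between sorts (at 100 CPM, passing over genes under 1/5 of their level in neutrophils, fibroblasts or endothelial cells), 6 each way against each like group, those most apart in 34 lists, and 5 leading genes per sub-cluster. The genes named for cells with or without a set UMI, and Lyz2, were chosen after their values were seen. Some items are not reported here. Mitochondrial, ribosomal, haemoglobin, predicted and duplicated names were not ranked. Names without a match were Clec6a, Clec7a and Ifi30.

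Sub-clusters came from 2000 variable genes, 20 principal components, 15 neighbours and Leiden at resolution 0.5 (scanpy 1.11.5). Doublets were marked with Scrublet in 63 of 4365 and 97 of 6677 barcodes, 2 and 0 of them Ccl17-set cells, and were kept. Shares of cells were also taken after thinning to 5000 UMIs. Gene positions are from GENCODE M21. Intervals cover counting error only. Alternatives were limits on UMIs, mitochondrial share, Ccr7 and scores, other scalings (TMM in edgeR 4.0.16 and median of ratios), filters, pseudocounts and left-out cells.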

Additional observations from a re-analysis of the deposited data

Results flagged for a closer look

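Ctsk, a collagen-degrading protease, went opposite ways in the 2 groups of cells. It was 0.203 times as high in Tom positive as in Tom negative Ccl17-set cells (0.183 to 0.225), at 102 and 503 CPM, and 1.63 times as high in the other myeloid cells, at 123 and 75.7 CPM. The difference between the groups was not tested, since each sort had 1 library. Its level among Ccl17-set cells rested on 12 cells at 1000 CPM or more, and without them the log2 difference was -0.92. With mitochondrial UMIs limited to 5% it was 0.51, the direction of the other myeloid cells.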

How the results depend on the processing

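There were 24 alternatives, 4 of them added after the data were seen. Over these, 1349 of 1815 values for single genes and lists and 151 of 200 for the main results were counted as unchanged. That meant staying inside the main value's interval, or within 1.5-fold for counts of genes. Sign was checked only where the main value had passed its limit. Smaller values could thus change sign and still count: the monocyte list's median kept its sign in 6 of 22 alternatives.

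Asking for a lead of 0.5 standard deviations over the next set gave shares of 4.78% and 8.66%, a ratio of 0.552, tdTomato at 4.20, Cdkn2a at 1.55, a class II median of 0.013 in place of -0.29 (the sign turned), 74 genes lower in Tom positive cells, and 104 higher and 138 lower against other myeloid cells. Standardising within each library gave 17.2% and 11.8%, a ratio of 1.46 (the order turned), 147 higher and 111 lower between sorts, a class II median of -0.73 and 41 higher against other myeloid cells. At least 100 CPM of the set gave 5.82% and 10.98%, 0.530, tdTomato at 4.17, 28 higher between sorts, and 76 higher and 99 lower against other myeloid cells. A set UMI gave 6.53% and 12.5%, 0.522, tdTomato at 4.21 and 59 higher against other myeloid cells. A mitochondrial limit of 5% gave Cdkn2a at 0.50 (under 1.5-fold), 71 higher between sorts and 45 higher against other myeloid cells, and no Ccr7 limit gave 41 of the latter.

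Without barcodes in both libraries there were 113 higher and 81 lower between sorts and a class II median of -0.45. Thinned to 5000 UMIs there were 109 and 87, a median of -0.44 and Cdkn2a at 1.36. Reporter-high cells gave tdTomato at 4.95 and a median of -0.44, and a pseudocount of 5 gave tdTomato at 4.31. No CPM filter gave 1841 and 1481 between sorts, and 464 and 272 against other myeloid cells. A filter of 100 CPM gave 14 and 27, and 38 lower against other myeloid cells. The causes of these shifts were not tested beyond the fewer or more cells and genes that each setting leaves.

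The sign turned between sorts for F13a1 (-3.01 with a lead of 0.5, -2.87 at 100 CPM of the set, -0.43 with a set UMI), Ccl7 (-1.82, -1.55 and -1.77 likewise), Pf4 (-0.59 with the lead, -0.0063 at 100 CPM), Gzmc (-2.82 with a set UMI), Ms4a7 (-0.19 at 100 CPM), Selenop (-0.084 at 100 CPM), Ctsk (0.51 at 5% mitochondrial), the fusion and osteoclast list (0.088 at 5% mitochondrial) and the endothelial list (-0.46 without doublets, -0.62 in reporter-high cells). Of values under 1.5-fold, Ccl17 went from -0.24 to 0.16 (lead), 0.17 (100 CPM) and 0.18 (set UMI), and the medians of the IL-4 receptor, glycolysis, interferon and stress lists kept their sign in 20, 19, 16 and 12 of 22 alternatives. H2-Eb1 against other myeloid cells stayed between 1.53 and 2.02 and Dcstamp between sorts between -1.42 and -0.56. No paired analysis was possible because each group has 1 library and the labels give no replicate numbers. Depth limits genes under about 10 CPM, and 10 cells or fewer set Ccl22, Gzmc and much of Ctsk.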

Other observations

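Cycling cells were present in both sorts: 20 of 180 Tom positive and 35 of 338 Tom negative Ccl17-set cells held at least 200 CPM of Mki67 and Top2a together, which mark dividing cells (11.1% and 10.4%), beside 5.32% and 7.44% of other myeloid cells. The cell division list had medians of 0.55 and 0.24 against other myeloid cells, with none of 18 genes past 2-fold. Interferon response genes were low in Ccl17-set cells, with 9 of 18 at 10 CPM or more, 2 of them higher and 4 lower in Tom positive cells. Their median was 0.17 over all Ccl17-set cells and -0.30 in cells with a set UMI. Of all genes at that level 4.01% were higher and 2.48% lower. A Flt3 UMI was found in 2 Tom positive and 17 Tom negative Ccl17-set cells, and 200 CPM of Cd209a in 1 and 8. Dissociation stress genes had medians of 0.01 and -0.02 against other myeloid cells and -0.02 between sorts.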
